A study of Mus musculus with 6 samples.

Results

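The genes described here are 10 transcription factors and cofactors of B lineage commitment, namely Pax5, Ebf1, Tcf3, Foxo1, Ikzf1, Ikzf3, Bach2, Pou2af1, Spib and Lef1. They were taken by name, and all 10 were found among the 17097 genes that had a probe set annotated with a single symbol, through 18 of the 45037 probe sets that were not controls. The study measured RNA of sorted mouse pro-B cells (B220+CD43+IgM-) with Affymetrix perfect-match arrays. There were 3 arrays of HDAC7 deficient cells, from mice with a conditional Hdac7 allele, and 3 arrays of wild type cells, all labelled as biological replicates. HDAC7 belongs to the class IIa histone deacetylases, and the series asks whether it represses genes of other lineages in B cell precursors. The sources used here do not give the Cre line that deletes Hdac7 or the strain, age and sex of the mice. All levels are log2 values per probe set as deposited, and every difference is on the log2 scale, HDAC7 deficient over wild type.

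B cell commitment is built by a cascade of DNA-binding factors. E2A, encoded by Tcf3, and FOXO1 act with EBF1 to open early B lineage genes, EBF1 activates Pax5, and PAX5 in turn sustains Ebf1 while repressing genes of other blood lineages. Ikaros (Ikzf1) and Aiolos (Ikzf3) are related zinc finger factors that shape lymphoid specification and the pre-B cell stage. BACH2 represses myeloid and plasma cell genes, OCA-B (Pou2af1) is a coactivator of octamer-binding factors, SPI-B is an ETS factor related to PU.1, and LEF1 is a nuclear partner of beta-catenin present in pro-B cells.

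The promoters of 4 of these genes are printed because Ebf1 and Pax5 are the core of the cascade, Spib had the largest positive difference and Pou2af1 the largest negative one. Each is the RefSeq window of assembly GRCm38.p6, 5′ to 3′ on the gene's strand, covering 250 bases before the start of transcription and 50 after it. Capitals mark E boxes (CANNTG, the letters bound by E2A and many other helix-loop-helix factors) and the EBF core (CCCNNGGG), both palindromic, so that 1 search covers both strands.
Ebf1, chr11:44619978-44620277, plus strand: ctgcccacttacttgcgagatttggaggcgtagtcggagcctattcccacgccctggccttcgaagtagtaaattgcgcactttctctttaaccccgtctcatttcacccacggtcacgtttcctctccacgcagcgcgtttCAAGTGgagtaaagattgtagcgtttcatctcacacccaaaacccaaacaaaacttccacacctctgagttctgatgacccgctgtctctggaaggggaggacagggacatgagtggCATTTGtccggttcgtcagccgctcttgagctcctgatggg
Pax5, chr4:44710645-44710944, minus strand: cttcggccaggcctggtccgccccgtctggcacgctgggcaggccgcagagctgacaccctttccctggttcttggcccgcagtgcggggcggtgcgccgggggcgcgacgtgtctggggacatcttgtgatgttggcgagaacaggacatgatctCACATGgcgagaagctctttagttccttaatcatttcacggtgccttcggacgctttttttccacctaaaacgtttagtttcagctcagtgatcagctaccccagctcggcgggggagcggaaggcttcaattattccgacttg
Spib, chr7:44532022-44532321, minus strand: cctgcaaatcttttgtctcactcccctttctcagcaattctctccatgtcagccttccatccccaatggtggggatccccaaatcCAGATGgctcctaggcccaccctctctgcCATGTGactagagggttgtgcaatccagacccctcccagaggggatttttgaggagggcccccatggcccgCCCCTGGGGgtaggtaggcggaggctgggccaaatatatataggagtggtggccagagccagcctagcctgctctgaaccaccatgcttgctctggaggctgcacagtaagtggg
Pou2af1, chr9:51213440-51213739, plus strand: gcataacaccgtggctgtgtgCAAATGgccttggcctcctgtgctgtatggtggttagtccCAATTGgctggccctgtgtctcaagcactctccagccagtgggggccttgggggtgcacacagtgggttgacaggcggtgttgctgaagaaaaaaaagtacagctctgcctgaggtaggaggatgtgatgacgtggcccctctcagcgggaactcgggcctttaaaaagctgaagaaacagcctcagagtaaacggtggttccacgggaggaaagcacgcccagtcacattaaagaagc
RefSeq windows were found for 9 of the 10 genes, 14 windows in all, since some genes have several starts. An E box was present in 10 of the 14, against 72.3% of all 32851 windows of that length. The EBF core was present in 3, those of Foxo1, Spib and Ikzf1, against 13.7% of all windows, and in Spib 2 matches overlap. The Ikaros letters TGGGAA, searched on both strands, were present in 4 windows, of Lef1 and Ebf1, against 25.6% of all. The other Ebf1 window held none of these letters. A match is a description of the sequence and not evidence of binding.

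A pair of array features touches every result below. Wild-type replicate 3 stood apart, with correlations across probe sets of 0.70 to 0.82 with the other 5 arrays, against 0.94 to 0.99 among those 5. Its control probe sets for Actb read 1.69 higher at the 3' end of the transcript than in the middle, against differences of 0.16 to 0.26 on the other arrays. The RNA Xist and the hybridisation spike-in controls also divided the arrays across the genotypes. HDAC7-deficient replicates 2 and 3 and wild-type replicate 3 were Xist-high (8.51 to 11.40), and HDAC7-deficient replicate 1 and wild-type replicates 1 and 2 were Xist-low (4.87 to 5.38). Spike-in means were 9.99 to 10.78 for Xist-high and 8.64 to 9.17 for Xist-low. Hdac7 itself read 9.95, 9.54 and 9.27 on the HDAC7-deficient arrays, against 9.06, 9.48 and 7.31 on the wild-type arrays, so its probe sets, whose place relative to the deleted part is not known here, did not check the labels.

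None of the 10 genes differed between HDAC7 deficient and wild type beyond the spread of the arrays. Fitted with all 17097 genes in limma, with Benjamini-Hochberg adjustment, they had adjusted p-values of 0.404 to 0.856, and 0 passed 0.05, against 0% of all genes. At an unadjusted p under 0.05 there were also 0 of the 10, against 12.7% of all genes. In none of the 10 did the 3 arrays of HDAC7 deficient lie entirely on 1 side of the 3 of wild type, a separation seen in 26.3% of all genes. Of the 10, 8 had a positive difference and Ebf1 and Pou2af1 a negative one, with a median of 0.31 against -0.03 for all genes. Of the 10, 9 lay among the 25% of genes with the highest mean level, and the median difference of those 4275 genes was 0.56, of which 89.6% were positive. Without wild-type replicate 3 the median of the 10 was 0.09 and that of the bright genes 0.06.

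**Figure D1:**
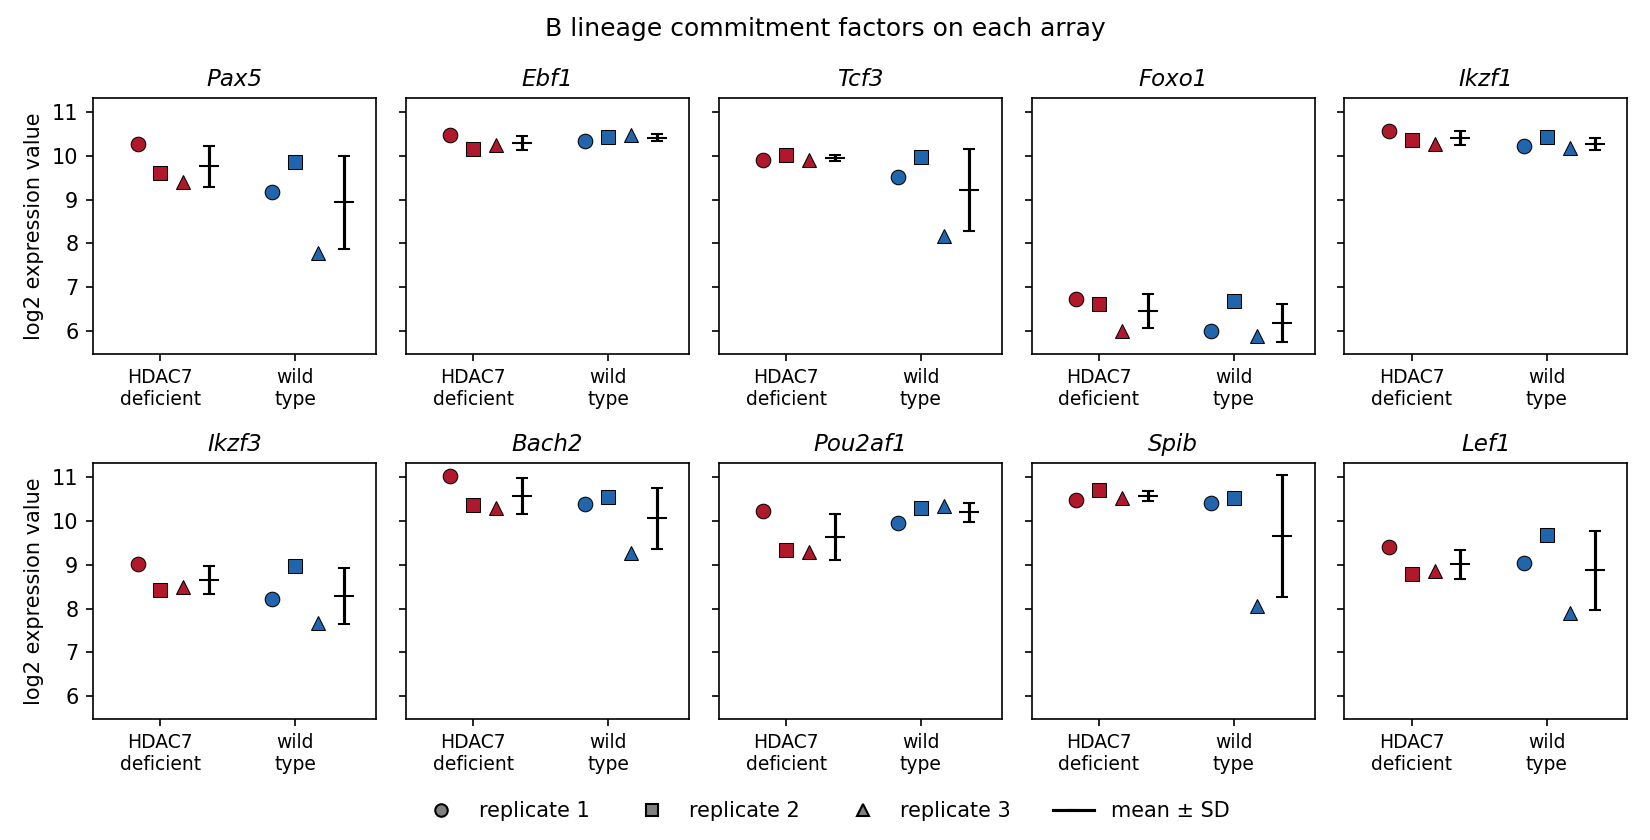
Log2 expression value (vertical axis) of each of the 10 genes on every array, with HDAC7 deficient left of wild type, replicates as separate symbols and the mean ± SD of 3 arrays as a bar. The triangle of wild-type replicate 3 is the lowest of the 6 points in 8 of the 10 panels; the panels of Ebf1 and Pou2af1 are the exceptions.

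Pax5, the commitment factor, read 10.28, 9.60 and 9.40 on the HDAC7-deficient arrays, against 9.18, 9.85 and 7.78 on the wild-type arrays. The groups overlapped, since wild-type replicate 2 lay above HDAC7-deficient replicates 2 and 3. Its difference was 0.82 ± 0.57 (SE, n = 3 each; limma adjusted p = 0.422), with a 95% confidence interval of -0.53 to 2.17. Without wild-type replicate 3 the difference was 0.24 and the interval -0.43 to 0.92.

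Ebf1, which acts upstream of Pax5, had its brightest probe set at 10.47, 10.15 and 10.24 in HDAC7 deficient, against 10.34, 10.42 and 10.48 in wild type. All 6 values lay close together, and here wild-type replicate 3 was the highest array. The difference was -0.13 ± 0.28 (limma adjusted p = 0.757). The 2 dimmer Ebf1 probe sets differed by -0.35 and 0.10 with all arrays, and by -0.41 and -0.09 without wild-type replicate 3. On those probe sets HDAC7-deficient replicate 1 was the highest array, at 9.70 and 8.97, and HDAC7-deficient replicates 2 and 3 read 8.71 and 8.77 on one and 8.15 and 8.09 on the other.

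Tcf3, the gene of the E2A proteins E12 and E47, read 9.91, 10.03 and 9.90 in HDAC7 deficient, against 9.51, 9.98 and 8.16 in wild type. The HDAC7-deficient values were tight and wild-type replicate 2 lay among them. The difference was 0.73 ± 0.49 (limma adjusted p = 0.417). The other 2 probe sets differed by 0.63 and 0.84, and on them wild-type replicate 3 read 7.08 and 5.66, against 9.50 and 7.71 on wild-type replicate 1. Without wild-type replicate 3 the 3 probe sets differed by 0.20, -0.25 and 0.03, and so no longer shared a direction.

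Foxo1, whose product drives recombinase genes in B cell precursors and is switched off by AKT, was measured here by 1 probe set. It read 6.74, 6.61 and 6.004 in HDAC7 deficient, against 5.99, 6.68 and 5.88 in wild type. Alone among the 10 it had a mean below that of the median gene, and its signal was dim. The difference was 0.27 ± 0.31 (limma adjusted p = 0.569), and 0.11 without wild-type replicate 3.

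Ikzf1, the gene of Ikaros, had 2 bright probe sets that disagreed on 1 array. The brighter one read 10.57, 10.36 and 10.27 in HDAC7 deficient, against 10.22, 10.43 and 10.17 in wild type, a difference of 0.12 ± 0.28 (limma adjusted p = 0.763). The other read 10.24, 10.56 and 10.34 in HDAC7 deficient, against 10.22, 10.52 and 7.20 in wild type, a difference of 1.06 ± 0.85. Wild-type replicate 3 thus deviated from the mean of the other wild-type arrays by -0.15 on the first probe set and by -3.17 on the second. Without that array the probe sets differed by 0.07 and 0.01, less than their spread.

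Ikzf3, the gene of Aiolos, which rises as precursors mature, read 9.01, 8.42 and 8.50 on its brighter probe set in HDAC7 deficient, against 8.23, 8.96 and 7.68 in wild type. The groups overlapped and the difference was 0.35 ± 0.41 (limma adjusted p = 0.566). Its dim probe set, at 5.56, 5.32 and 5.38 in HDAC7 deficient, against 5.20, 5.27 and 5.51 in wild type, was the single one of the 18 whose groups separated once wild-type replicate 3 was left out, higher in HDAC7 deficient, a separation seen in 16.2% of all probe sets.

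Bach2, the repressor that holds back plasma cell differentiation, read 11.03, 10.36 and 10.29 in HDAC7 deficient, against 10.38, 10.54 and 9.26 in wild type. HDAC7-deficient replicate 1 was the highest of the 6 arrays and wild-type replicate 3 the lowest. The difference was 0.50 ± 0.44 (limma adjusted p = 0.482), and 0.10 without wild-type replicate 3. The other 2 probe sets differed by 0.22 and 0.27, and on both wild-type replicate 3 deviated from the other wild-type arrays by -0.28.

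Pou2af1, the coactivator OCA-B, had the most negative difference. It read 10.23, 9.34 and 9.30 in HDAC7 deficient, against 9.95, 10.30 and 10.34 in wild type. HDAC7-deficient replicates 2 and 3 were the lowest arrays, while HDAC7-deficient replicate 1 lay within the wild-type range, so the groups overlapped. The difference was -0.57 ± 0.36 (limma adjusted p = 0.404) and -0.50 without wild-type replicate 3, the array on which it read highest. Within the Xist-low arrays, which hold 1 HDAC7-deficient array, the difference was 0.10. Within the Xist-high arrays, whose single wild-type array is replicate 3, it was -1.02. With the Xist division as a block the difference was -0.46 (limma adjusted p = 0.313). With that block and wild-type replicate 3 left out the difference was 0.10, and it then rests on the Xist-low arrays alone. This division is not in the labels, and apart from those fits its part in the result was not tested.

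Spib had the largest positive difference and Lef1 one that turned. Spib read 10.48, 10.71 and 10.53 in HDAC7 deficient, against 10.40, 10.53 and 8.05 in wild type. Only wild-type replicate 3 lay apart, by -2.41 from the mean of the other wild-type arrays. The Spib difference was 0.91 ± 0.67 (limma adjusted p = 0.434), but 0.11 without that array, with an interval of -0.15 to 0.37. Lef1 read 9.40, 8.79 and 8.86 in HDAC7 deficient, against 9.05, 9.68 and 7.91 in wild type, and wild-type replicate 2 was the highest array. Its difference was 0.14 ± 0.50 (limma adjusted p = 0.856) with all arrays and -0.35 without wild-type replicate 3.

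**Figure D2:**
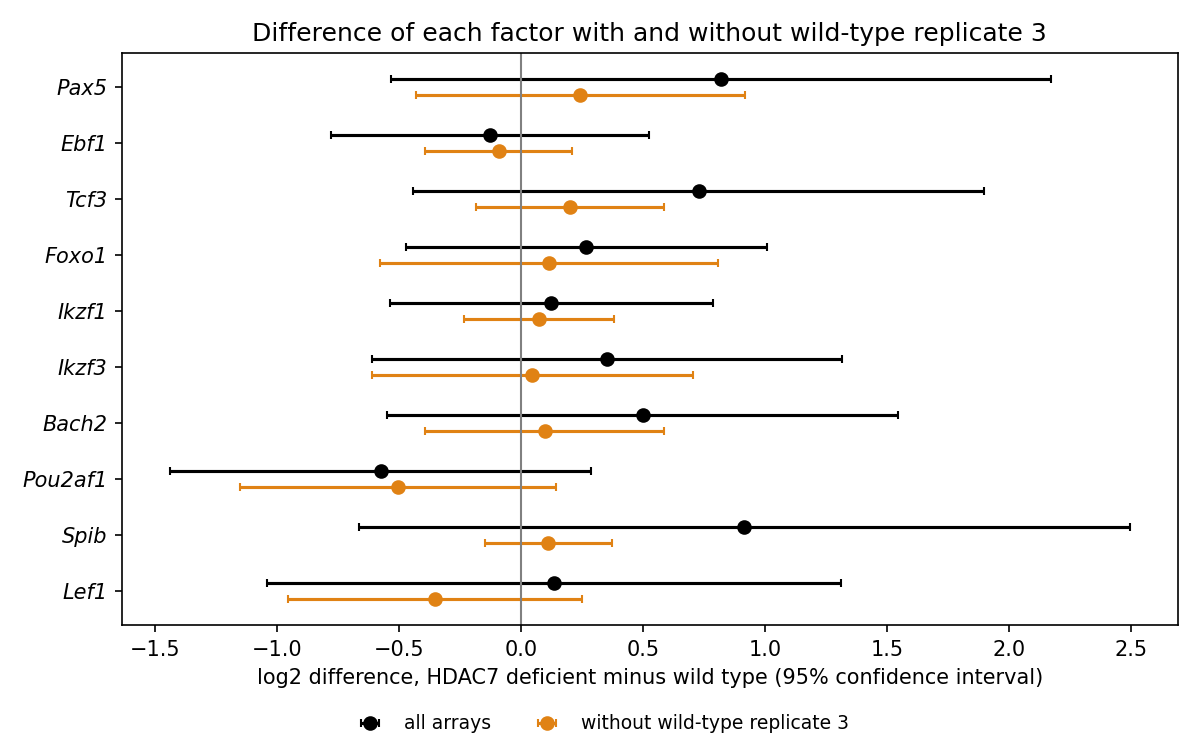
Log2 difference of HDAC7 deficient minus wild type for each gene (horizontal axis) with its 95% confidence interval from limma, with all 6 arrays (black) and without wild-type replicate 3 (orange). Every interval includes 0 in both fits, and without that array the point of Lef1 lies on the other side of 0.

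Leaving out wild-type replicate 3 lowered all 8 positive differences and narrowed all 10 intervals. The median distance from the estimate to the interval's end was 1.01 with all arrays and 0.55 without that array. A difference of 2-fold (1 on the log2 scale) in either direction lay outside the interval for 2 of the 10 genes with all arrays and for 9 without it. The exception was Pou2af1, whose interval then ran from -1.15 to 0.15. Adjusted p-values without that array were 0.445 to 0.957 in limma, and again 0 of 10 genes had an unadjusted p under 0.05, against 14% of all genes.

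The low readings of wild-type replicate 3 were uneven among probe sets of 1 gene. It was the lowest array for 14 of the 18 probe sets, and its deviation from the mean of the other wild-type arrays ran from -3.17 to 0.28 with a median of -0.75. Among the 10 genes it was lowest in 8, against 85.0% of the bright genes and 37.8% of all genes. Over the other 5 arrays, the probe sets spanned 0.31 to 1.10 between the lowest and the highest array.

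**Figure D3:**
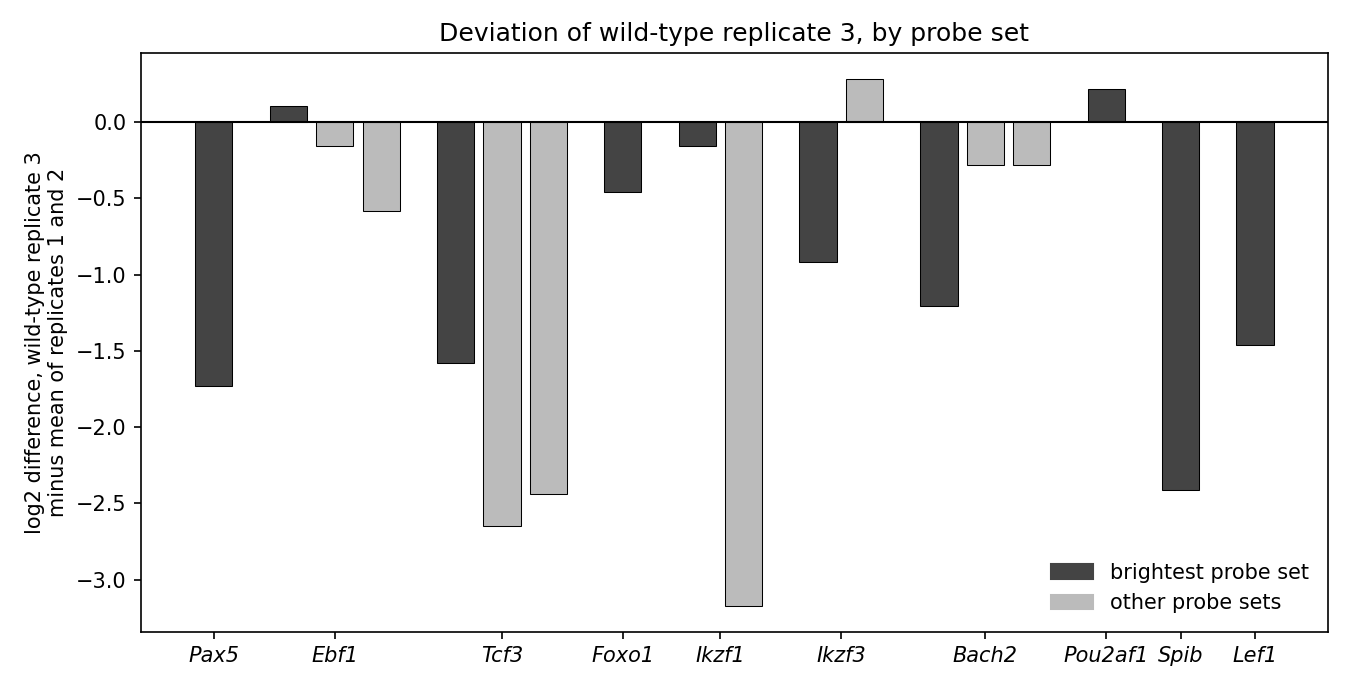
Log2 deviation of wild-type replicate 3 from the mean of wild-type replicates 1 and 2 (vertical axis) for the 18 probe sets, grouped by gene, with the brightest probe set of each gene dark. Bars of 1 gene differ in height, most of all for Ikzf1 with -0.15 and -3.17.

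The 10 genes also differed between arrays of the same group. HDAC7-deficient replicates 2 and 3 both read below replicate 1 in 8 of the 10 genes and in 14 of the 18 probe sets, against 53.8% of the bright genes and 36.1% of all genes. Tcf3 and Spib, where replicate 2 read highest, were the exceptions among the 10. Wild-type replicate 2 read above wild-type replicate 1 for all 10 genes and all 18 probe sets, against 89.0% of the bright genes and 52.5% of all genes. The median level of the 10 genes was 10.25, 9.81 and 9.65 on the HDAC7-deficient arrays, against 9.73, 10.14 and 8.11 on the wild-type arrays. Within the Xist-low arrays, HDAC7-deficient replicate 1 was higher than the mean of wild-type replicates 1 and 2 for all 10 genes. The share was 72.2% of the bright genes and 45.9% of all genes. Of the 18 probe sets 17 were higher, and the less bright Ikzf1 probe set was not, at -0.13. The median of the 10 genes was 0.21, against 0.14 for the bright genes. With 1 HDAC7-deficient array this comparison has no replicate check. Within the Xist-high arrays, whose single wild-type array is replicate 3, the median was 0.85, against 1.44 for the bright genes.

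Genes that the cascade switches on showed no difference that passed the test. Of 17 measured early B genes activated by E2A, EBF1 and PAX5, 11 had a positive difference and 6 a negative one, and their median was 0.10. Leaving out wild-type replicate 3 gave counts of 5 and 12 and a median of -0.24. Of the bright genes, 89.6% had a positive difference with all arrays (median 0.56) and 59.9% without that array (median 0.06). The smallest limma adjusted p of the 17 was 0.377. At an unadjusted p under 0.05 there was 1 of the 17, against 12.7% of all genes in either direction and 3.52% in the higher direction. This was Cnr2, the cannabinoid receptor of B cells and a dim gene. It read 6.58, 6.85 and 6.69 in HDAC7 deficient, against 5.69, 6.05 and 5.18 in wild type. Cnr2 was also the single one of the 17 whose groups did not overlap. That separation was seen in 26.3% of all genes in either direction and in 9.45% in the higher direction. The Cnr2 difference was 1.07 ± 0.26, and 0.84 without wild-type replicate 3. The signalling adaptor gene Blnk had a difference of 0.66 ± 0.47 and Cr2, a dim gene, one of -0.54 ± 0.40. Cd72, a coreceptor gene and PAX5 target, had one of 0.62 ± 0.48. Without wild-type replicate 3 these differences were 0.19 (Blnk), -0.10 (Cr2) and 0.12 (Cd72). For Rag1 and Rag2, the recombinase genes, HDAC7-deficient replicates 2 and 3 read below replicate 1, as they did for Pou2af1. Rag1 read 10.14, 8.38 and 8.14 in HDAC7 deficient, against 9.20, 9.09 and 7.59 in wild type. Rag2 read 9.09, 7.15 and 6.94 in HDAC7 deficient, against 7.94, 8.14 and 7.63 in wild type. For both, HDAC7-deficient replicate 1 was the highest of the 6 arrays, and the differences were 0.26 ± 0.67 for Rag1 and -0.18 ± 0.58 for Rag2, and -0.26 and -0.32 without wild-type replicate 3.

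Of 9 measured genes activated by FOXO factors, 8 had a positive difference, against 89.6% of the bright genes. The median of the 9 was 0.35, and 0.27 without wild-type replicate 3, against 0.56 and 0.06 for the bright genes. None of the 9 passed (smallest limma adjusted p 0.377). The largest was Klf2, a quiescence and homing factor, at 9.06, 10.17 and 9.83 in HDAC7 deficient, against 7.81, 8.35 and 6.40 in wild type. Its difference was 2.17 ± 0.57 (limma adjusted p = 0.377), and 1.61 without wild-type replicate 3. S1pr1, the receptor for lymphocyte egress that KLF2 activates in T cells, differed by 0.98 ± 0.27, and by 0.86 without that array. The groups of both genes did not overlap, a separation in the higher direction seen in 9.45% of all genes, bright and dim together. Ccng2 differed by 0.51 ± 0.38 and Sesn1 by 0.44 ± 0.46, and their groups overlapped. Without wild-type replicate 3 these differences were 0.27 (Ccng2) and 0.08 (Sesn1).

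Genes that PAX5 keeps low in B cell precursors all had positive differences, 11 of 11, with a median of 0.77. Leaving out wild-type replicate 3 gave 9 of 11 and a median of 0.36. None of the 11 lay below the median gene. Of the bright genes, 89.6% had positive differences with a median of 0.56, and 59.9% with a median of 0.06 without that array. With the dimmest 50% of genes left out, the median of the remaining genes was 0.42. The list was chosen with earlier results of these data known, so its counts describe these arrays and are not a test of the list. None of the 11 passed (smallest limma adjusted p 0.377). The shares given next are over bright and dim genes together, of which 48.0% had positive differences. Shares among the bright genes alone were not counted. In 6 of the 11 HDAC7 deficient lay wholly above wild type, against 9.45% of all genes. An unadjusted p under 0.05 in the higher direction was seen for 4, against 3.52% of all genes. The chemokine gene Ccl3 read 8.94, 9.21 and 8.69 in HDAC7 deficient, against 7.95, 7.61 and 7.48 in wild type, a difference of 1.27 ± 0.30. The others were the myeloid integrin Itgam with 1.51 ± 0.42, the costimulatory receptor Cd28 with 0.77 ± 0.29 and the joining chain gene Jchain with 1.49 ± 0.58. Without wild-type replicate 3 these differences were 1.17 (Ccl3), 1.31 (Itgam), 0.78 (Cd28) and 0.89 (Jchain). Itgam read 6.95, 8.35 and 8.07 in HDAC7 deficient, against 6.43, 6.54 and 5.87 in wild type. For Cd28 the values were 8.33, 8.40 and 8.12, against 7.18, 7.83 and 7.52. Those of Jchain were 8.66, 7.42 and 8.19, against 7.01, 7.40 and 5.40, so its groups nearly touched. Myeloid cells also express Ccl3 and Itgam, T cells Cd28 and plasma cells Jchain, and the levels of the markers of those cells are given below. Itgam is itself one of the granulocyte and macrophage markers and Jchain one of the plasma cell markers, so those lists are not separate from this one.

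Among 27 other transcription factors of early lymphoid cells 22 had a positive difference (median 0.57, and 0.19 without wild-type replicate 3). Tcf7l1, a relative of Lef1, read 5.25, 5.15 and 5.35 in HDAC7 deficient, against 5.61, 5.65 and 6.53 in wild type, with a difference of -0.68 ± 0.27. Spi1, the gene of PU.1, differed by 0.80 ± 0.43, its relative Spic by -0.76 ± 0.38, and Bach1, the relative of Bach2, by 0.73 ± 0.41. Without wild-type replicate 3 these differences were -0.38 (Tcf7l1), 0.33 (Spi1), -0.35 (Spic) and 0.34 (Bach1). Among 15 partners and antagonists 14 had a positive difference (median 0.51, and 0.20 without that array). For comparison with both lists, 89.6% of the bright genes had a positive difference (median 0.56, and 0.06 without that array). Mafg, a small MAF partner of BACH2, differed by 0.87 ± 0.35, its relative Maff by 0.60 ± 0.32, the E2A inhibitor Id3 by 0.99 ± 0.51 and the corepressor gene Tle1 by 0.45 ± 0.23. Without wild-type replicate 3 these were 0.67 (Mafg), 0.67 (Maff), 0.47 (Id3) and 0.38 (Tle1). Of the genes named here, Tcf7l1, Spic, Maff and Tle1 had a mean below that of the median gene. No gene of either list passed (smallest limma adjusted p 0.377 in each).

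**Figure D4:**
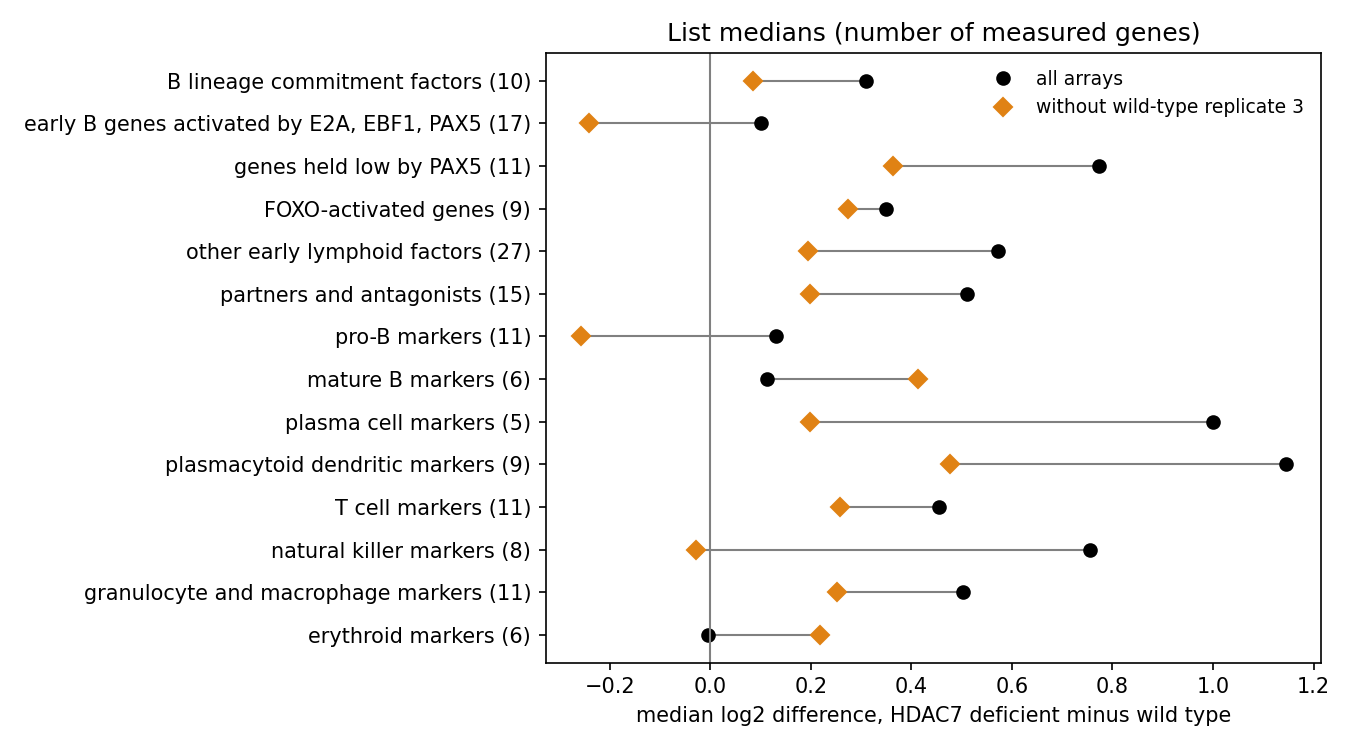
Median log2 difference of HDAC7 deficient minus wild type (horizontal axis) over the measured genes of each list, whose number stands in brackets, with all 6 arrays (black circles) and without wild-type replicate 3 (orange diamonds). The commitment factors lie at 0.31 and 0.09, and the medians of the pro-B, natural killer and erythroid markers and of the early B genes change sign when that array is left out.

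Pro-B markers were bright in the sorted cells, but they were not alone in this. The granulocyte and macrophage list had mean levels at least as high in both groups. In every other marker list except the erythroid one, most markers were above the median gene. Of 11 measured pro-B markers, all but Kit had a mean above that of the median gene, and the mean level over the list was 9.08 to 9.92 on HDAC7-deficient arrays, against 9.52 and 9.69 on 2 of the wild-type arrays and 8.44 on wild-type replicate 3. Without that array 9 of the 11 had a negative difference (median -0.26), against a median of 0.13 with it. Of the bright genes, 59.9% had a positive difference without that array (median 0.06). Spib is also a gene of plasmacytoid dendritic cells and Lef1 of T cells, and in bulk samples a change in the number of such cells and in RNA per cell cannot be told apart. The 9 measured plasmacytoid dendritic markers all had positive differences (median 1.15, and 0.48 without wild-type replicate 3). Of the bright genes, 89.6% were positive (median 0.56, and 0.06 without that array). Mean levels over the plasmacytoid dendritic list were 9.39 to 10.03 in HDAC7 deficient and 7.10 to 9.42 in wild type. The 11 T cell markers had mean levels of 7.08 to 7.56 in HDAC7 deficient and 6.55 to 7.32 in wild type (median difference 0.45, and 0.26 without wild-type replicate 3), with Cd3e, Bcl11b and Gata3 below the median gene. The 11 granulocyte and macrophage markers had mean levels of 9.59 to 10.16 in HDAC7 deficient and 8.75 to 9.73 in wild type (0.50, and 0.25), with Adgre1 below the median gene. The 8 natural killer markers had mean levels of 8.41 to 8.81 in HDAC7 deficient and 6.96 to 8.77 in wild type (0.76, and -0.03), none of them below it. The 5 plasma cell markers had mean levels of 7.44 to 7.85 in HDAC7 deficient and 6.48 to 7.57 in wild type (1.0, and 0.20), with Prdm1 and Tnfrsf17 below it. The 6 mature B markers had mean levels of 6.93 to 7.66 in HDAC7 deficient, against 6.80 and 6.96 on 2 of the wild-type arrays and 8.35 on wild-type replicate 3 (0.11, and 0.41), with Cr2 and Fcer2a below it. The 6 erythroid markers had mean levels of 5.997 to 7.01 in HDAC7 deficient and 6.19 to 6.68 in wild type (-0.0037, and 0.22), with Klf1, Alas2, Epor and Slc4a1 below it. Wild-type replicate 3 had the highest wild-type mean for the mature B and erythroid markers and the lowest for the other lists of markers. No marker of these lists passed the limma adjusted p (smallest 0.377). Whether such cells were present, and their part in the values of the 10 genes, was not tested.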

How the data were processed

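Per the labels' protocols, total RNA of sorted pro-B cells went through whole transcriptome amplification. As deposited by the authors, the table holds 1 log2 value per probe set and array; the sources used here do not name the normalization or software, and the scale was inferred from the span of values. Control probe sets were set aside. Of the rest, 28898 had 1 symbol in a platform annotation table, 28689 of them updated through Entrez numbers to RefSeq symbols of GRCm38.p6. Each gene was represented by its probe set of highest mean over the 6 arrays. Groups came from the sample titles. All genes, and separately all probe sets, were fitted with limma 3.58.1 in R 4.3.3, with an intensity trend, two-sided tests, Benjamini-Hochberg adjustment over the whole table and a threshold of 0.05. No exact permutation test was used, since 3 against 3 reaches 0.1 at best. Values are means ± SD or differences ± SE; precision is limited by the number of arrays, and replicates are labelled biological without naming the animals. Genes were named by rule: the 10 factors, Hdac7, and for each list up to 4 genes with the smallest p, with Rag1 and Rag2; the marker lists are given by levels and counts. The members and lists were chosen with earlier results of these data known. Alternatives were other probe set choices, filters on dim genes, scalings, variance models, blocks and leaving out each array. The fit was also run on simulated data with independent noise for each value and no outlying array, so that run does not cover wild-type replicate 3. Figures used matplotlib 3.10.9 in Python 3.11.15.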

Additional observations from a re-analysis of the deposited data

How the results depend on the processing

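Of 159 values of the 10 genes under 16 alternatives, 147 kept their direction and stayed short of the threshold. Reversed values were Ebf1 with median centring (0.0090), Ebf1 (0.093) and Pou2af1 (0.10) with a block for the Xist division and wild-type replicate 3 left out, Ikzf1 (-0.10), Ikzf3 (-0.11) and Lef1 (-0.32) with quantile normalization, and Lef1 with array weights (-0.19), without wild-type replicate 3 (-0.35) and without HDAC7-deficient replicate 1 (-0.05), in a range of -0.35 to 0.54 over the arrays left out; the cause was not tested. Centring on the median moved the median of all genes to 0.10 from -0.03, a shift the Ebf1 value shares. Quantile normalization gave a median of 0.044 with 5 of the 10 positive. Leaving out 1 array gave a median of the 10 between 0.09 and 0.61, and the count of genes past the threshold stayed at 0. The fit with that block and array left out gave 4 genes past the threshold and 0 of the 10. The median of the 10 within the Xist-high arrays was 0.85. Array weights, estimated gene by gene because the default estimate did not converge and chosen after seeing the data, gave wild-type replicate 1 a weight of 8.68 and wild-type replicate 3 one of 0.07. They called 8452 genes and 3 of the 10, with differences of 0.47 (Tcf3), 0.50 (Foxo1) and -0.52 (Pou2af1), and Hdac7 at 0.48; those calls rest largely on 1 wild-type array. The replicate number as a block gave 1 gene past the threshold and 0 of the 10. Same-numbered arrays deviated together with correlations of 0.08, 0.18 and 0.45. HDAC7-deficient replicates 2 and 3 correlated best with the wild-type array of the same number, but replicate 1 with wild-type replicate 2 (0.35). With replicate 1 going the other way, the numbers were not taken to pair the arrays.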
